A study of Mus musculus with 9 samples.

Results

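Polycomb repressive complex 2 (PRC2) was followed at the RNA level through the 10 mouse genes that encode its catalytic, core and accessory subunits: Ezh1, Ezh2, Eed, Suz12, Rbbp7, Mtf2, Phf1, Phf19, Jarid2 and Aebp2. The genes were picked by name as subunits of the complex, from 38293 genes in the count table. All 10 passed the filter on low counts in all 3 comparisons. PRC2 places methyl groups on lysine 27 of histone H3 (H3K27me3), a mark of silent developmental genes. EZH1 or EZH2 carries the methyltransferase activity, EED and SUZ12 hold the complex together and are needed for it to work, and accessory proteins bring it to CpG-rich DNA or to ubiquitinated chromatin. Accessory proteins sort PRC2 into variants that do not mix, PRC2.1 with one of the Polycomb-like proteins MTF2, PHF1 and PHF19, and PRC2.2 with JARID2 and AEBP2. Mouse embryonic stem cells can grow without PRC2 but then differentiate poorly.

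Poly-A RNA was sequenced from E14, a single mouse embryonic stem cell line of the 129/Ola strain, in 3 culture states with 3 libraries each. mESC-2i grew without serum in N2B27 with leukaemia inhibitory factor (LIF) at 10 ng/mL, 1 µM of the MEK inhibitor PD0325901 and 3 µM of the GSK3 inhibitor CHIR99021. mESC-ser grew in DMEM on gelatin with 15% fetal bovine serum and LIF at 10 ng/mL. EpiLC, epiblast-like cells, were made from naive cells on fibronectin with activin A at 20 ng/mL, basic FGF at 12 ng/mL and 1% knockout serum replacement. The states are called 2i, serum and EpiLC below. No genetic change is given for any of them, and no PRC2 subunit was targeted. Several components of the medium differ at once between the states, so their effects cannot be told apart.

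The promoters of 4 members are shown because these genes span the range of behaviour described below. Suz12 was the member with the largest fall in EpiLC against 2i, and Jarid2 and Phf19 were highest in serum. Ezh2 was not called in any comparison of the main fit, though some other fits described below called it. Each sequence is the 250 bases upstream of a RefSeq start site in build GRCm38.p6, written 5′ to 3′ on the strand of the gene. They lie at chr11:79992856-79993105 (+ strand) for Suz12, chr6:47595031-47595280 (- strand) for Ezh2, chr13:44730524-44730773 (+ strand, 1 of 2 annotated starts) for Jarid2 and chr2:34913977-34914226 (- strand) for Phf19. By the GENCODE gene bounds given below, the windows of Ezh2 and Jarid2 and part of that of Phf19 lie inside the gene, where that annotation starts farther upstream, and the window of Suz12 ends just before it. Capitals mark matches on either strand to the E2F words TTTGGCGC, TTTCCCGC, TTTGCCGC and TTTCGCGC, to the CCAAT box (CCAAT) and to the GC box (GGGCGG).
Suz12: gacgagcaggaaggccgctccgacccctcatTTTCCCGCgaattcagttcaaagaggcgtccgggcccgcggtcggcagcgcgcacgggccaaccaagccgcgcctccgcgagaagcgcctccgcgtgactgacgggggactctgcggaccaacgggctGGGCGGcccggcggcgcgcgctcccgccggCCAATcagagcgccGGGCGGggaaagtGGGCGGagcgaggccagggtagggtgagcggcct
Ezh2: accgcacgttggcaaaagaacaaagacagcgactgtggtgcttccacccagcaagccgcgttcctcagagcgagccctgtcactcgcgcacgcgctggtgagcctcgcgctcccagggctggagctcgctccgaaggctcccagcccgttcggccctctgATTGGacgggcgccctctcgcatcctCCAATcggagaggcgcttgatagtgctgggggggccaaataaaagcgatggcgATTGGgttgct
Jarid2: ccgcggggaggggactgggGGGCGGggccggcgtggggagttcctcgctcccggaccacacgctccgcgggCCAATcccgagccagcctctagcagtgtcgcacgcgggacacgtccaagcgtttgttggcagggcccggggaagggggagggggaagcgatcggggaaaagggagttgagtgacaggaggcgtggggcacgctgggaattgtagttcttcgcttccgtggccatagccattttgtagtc
Phf19: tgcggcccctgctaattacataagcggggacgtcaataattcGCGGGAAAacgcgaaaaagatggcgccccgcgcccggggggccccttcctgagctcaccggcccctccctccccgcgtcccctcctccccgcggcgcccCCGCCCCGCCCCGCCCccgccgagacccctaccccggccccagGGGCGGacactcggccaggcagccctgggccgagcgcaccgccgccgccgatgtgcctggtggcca

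The Suz12 promoter held 1 E2F word, 1 CCAAT box and 3 GC boxes. That of Phf19 held 1 E2F word, no CCAAT box and 4 GC boxes, of which 3 overlap by single bases and merge into one run of capitals. The Ezh2 promoter held 3 CCAAT boxes, no GC box and none of the 4 E2F words, and the Jarid2 promoter held 1 CCAAT box and 1 GC box. Over 32851 mouse promoters of the same length, 1.86% held an E2F word, 33.9% a CCAAT box and 32.7% a GC box. All 4 promoters were rich in CpG, with 37 in Suz12, 31 in Phf19 and 23 each in Ezh2 and Jarid2, beside a median of 6 over all promoters. Of the members not shown, no window held an E2F word, as in Ezh2 and Jarid2. Their CpG ran from 1 at a start of Aebp2 to 34 in Rbbp7, with 12 in Eed, 14 in Ezh1 and 23 in Phf1. A match of letters is a description of the sequence and no measure of binding.

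Total counts ranged from 7187576 to 16829549 per library. The states were checked against their markers by summed level, in counts relative to library size (CPM). The 6 naive markers Klf4, Esrrb, Zfp42, Tfcp2l1, Prdm14 and Nr0b1 summed to 2230 to 2373 CPM in 2i, 1342 to 1425 in serum and 40.5 to 45.9 in EpiLC, and the 5 EpiLC markers Fgf5, Otx2, Dnmt3b, Pou3f1 and Sox3 to 77.2 to 85.3, 617 to 722 and 1683 to 1770 CPM. Of the general markers, Pou5f1 was at 873 ± 206, 790 ± 69.5 and 1007 ± 21.6 CPM (SD, n = 3), and Sox2 at 468 and 509 CPM in 2i and serum but 61.8 CPM in EpiLC, where it was called lower (log2 fold changes -2.94 and -2.96 against 2i and serum, edgeR adjusted p = 4.75e-09 and 1.57e-13). Markers of other cells were low but not level. The 6 primitive endoderm markers (Gata4, Gata6, Sox17, Pdgfra, Dab2, Sox7) summed to 18.4 to 22.6 CPM in 2i, 32.6 to 34.2 in serum and 6.78 to 8.68 in EpiLC, and the 6 fibroblast markers (Col1a1, Col1a2, Col3a1, Thy1, Lum, Dcn) to 43.6 to 50.4, 58.5 to 77.3 and 40.8 to 45.2 CPM. Within the latter, Thy1 (3.25) and Dcn (4.08) were called higher and Col1a1 (-3.88), Col1a2 (-1.55) and Col3a1 (-5.82) lower in EpiLC against 2i on the log2 scale. Only Lum, in EpiLC, had no count in any library of a state. Their part in the PRC2 results was not tested. Since RNA came from whole cultures, transcription in fewer cells and less RNA per cell cannot be told apart.

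The order of the PRC2 genes by level differed between the states. Per length of exon (RPKM), Rbbp7 was the most abundant member in every state, at 78.5 ± 3.32 RPKM (SD, n = 3) in 2i, 96.2 ± 4.56 in serum and 94.1 ± 6.51 in EpiLC. In 2i it was followed by Suz12 (48.6 RPKM), Mtf2 (47.2), Eed (42.1), Ezh2 (20.0), Jarid2 (17.3), Aebp2 (8.51), Phf1 (5.70), Ezh1 (4.32) and Phf19 (0.224). Suz12, Mtf2 and Eed lay close together there, and Suz12 and Mtf2 differed by less than the SD of Mtf2 (4.50 RPKM). In serum, Jarid2 moved up to 86.7 ± 9.40 RPKM, next below Rbbp7, and the libraries of the 2 genes overlapped. In EpiLC, Suz12 dropped to 10.3 ± 1.05 RPKM, below Mtf2 (24.3), Eed (23.5), Ezh2 (18.4) and Jarid2 (13.2). Phf1, Ezh1 and Phf19 were the 3 least abundant members in every state. The order above them depends on the gene lengths used, here merged exons. With the longest transcript of each gene, Eed passed Rbbp7 in serum, at 2.44 against 2.36 times Ezh2. Eed also passed Suz12 in 2i, at 1.63 against 1.15 times Ezh2. In CPM, Mtf2 (269) was above Rbbp7 (228) in 2i and Jarid2 (842) above Rbbp7 (280) in serum, while Rbbp7 (274) stayed highest in EpiLC.

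**Figure D1:**
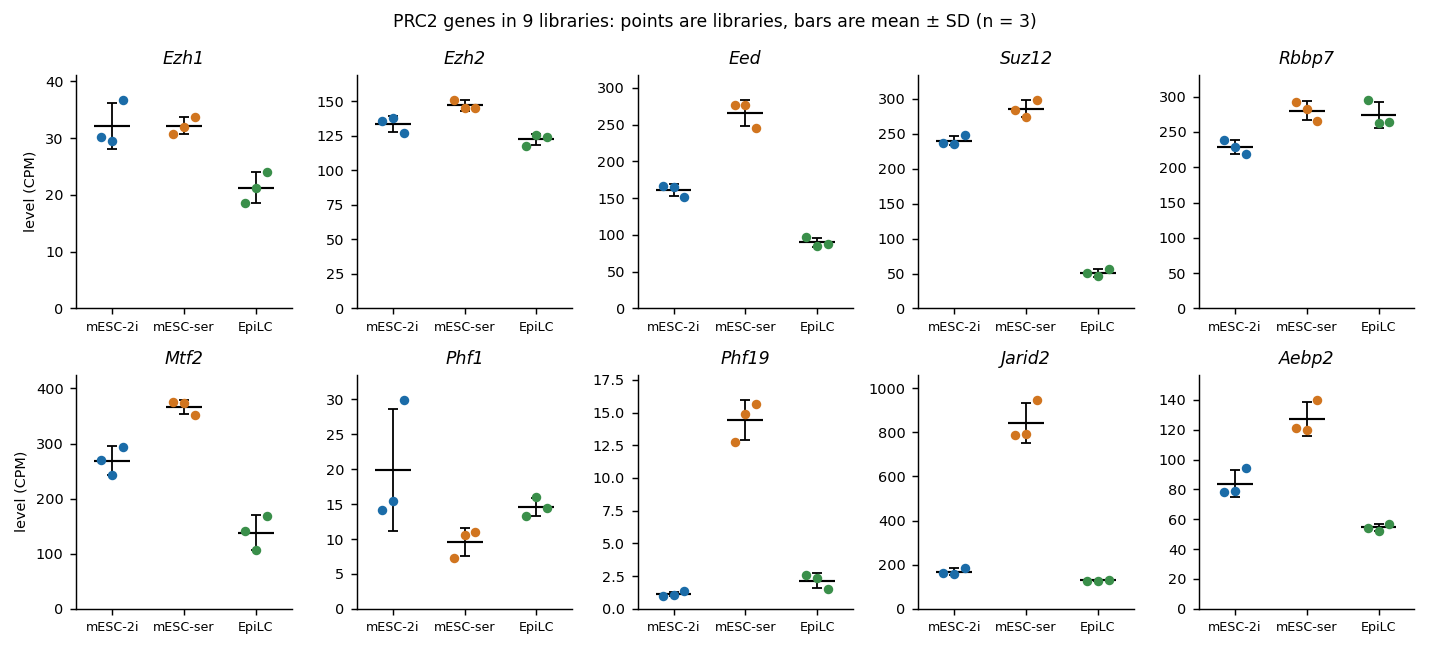
Level of each PRC2 gene (vertical axis, CPM, from 0) in the 3 libraries of mESC-2i, mESC-ser and EpiLC, with points for libraries and bars for mean ± SD (n = 3). Jarid2 sits at 787 to 947 CPM in mESC-ser and at or below 185 CPM elsewhere, Suz12 at 46.1 to 56.4 CPM in EpiLC and at or above 235 CPM elsewhere, and Ezh2 between 118 and 151 CPM throughout.

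Pairs of states were compared with edgeR's quasi-likelihood test over the whole table. A gene was called at an adjusted p under 0.05 with a log2 fold change beyond 0.5 in either direction, and adjusted p-values are given over all tested genes. In serum against 2i, 4 members were called higher (Phf19, Jarid2, Eed, Aebp2) and 1 lower (Phf1), where 25.9% of the 15728 tested genes rose and 30.3% fell by the same rule. In EpiLC against 2i, 1 member was called higher (Phf19) and 5 lower (Suz12, Mtf2, Eed, Aebp2, Ezh1), where 32.0% of 15378 genes were called higher and 37.8% lower. In EpiLC against serum, 1 member was called higher (Phf1) and 7 lower (Jarid2, Phf19, Suz12, Eed, Mtf2, Aebp2, Ezh1), where 35.5% of 15345 genes were called higher and 37.8% lower. With 10 members these shares are coarse, and only in the last comparison were more than 6 of them called in one direction. At a log2 fold change beyond 1, the members called in either direction were 3, 1 and 6 in the 3 comparisons, beside 31.4%, 48.5% and 51.9% of all tested genes. The median log2 fold change of the members was 0.31, -0.55 and -1.23 in the 3 comparisons, and that of all tested genes was -0.04, -0.11 and -0.07. The comparisons share libraries, so their counts are not independent of each other.

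Fold changes in these libraries followed gene length. The Spearman rho of exonic length with the fold change, across all tested genes with a known length, was 0.27 for serum against 2i, -0.32 for EpiLC against 2i and -0.47 for EpiLC against serum. Genes are not independent replicates, so these are descriptions. The PRC2 genes have 2909 (Rbbp7) to 9851 bp (Aebp2) of exon, beside a median of 3892 bp over the genes tested in the first comparison. Each member is therefore also given with offsets for length and GC content in each library, which brought those correlations to 0.02, -0.04 and -0.06. With the offsets 3 members were called higher and 1 lower in serum against 2i, where 24.5% of all tested genes were called higher and 28.5% lower. There were 1 higher and 4 lower in EpiLC against 2i (30.9% and 34.5% of all genes), and 1 higher and 5 lower in EpiLC against serum (34.1% and 31.5%). The members' medians then moved to -0.04, -0.12 and -0.29. The falls of Suz12, Eed and Mtf2 in EpiLC and the rises of Jarid2, Phf19 and Eed in serum were called in both fits. The calls of Aebp2 and Ezh1 were lost in every comparison where they had been made.

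**Figure D2:**
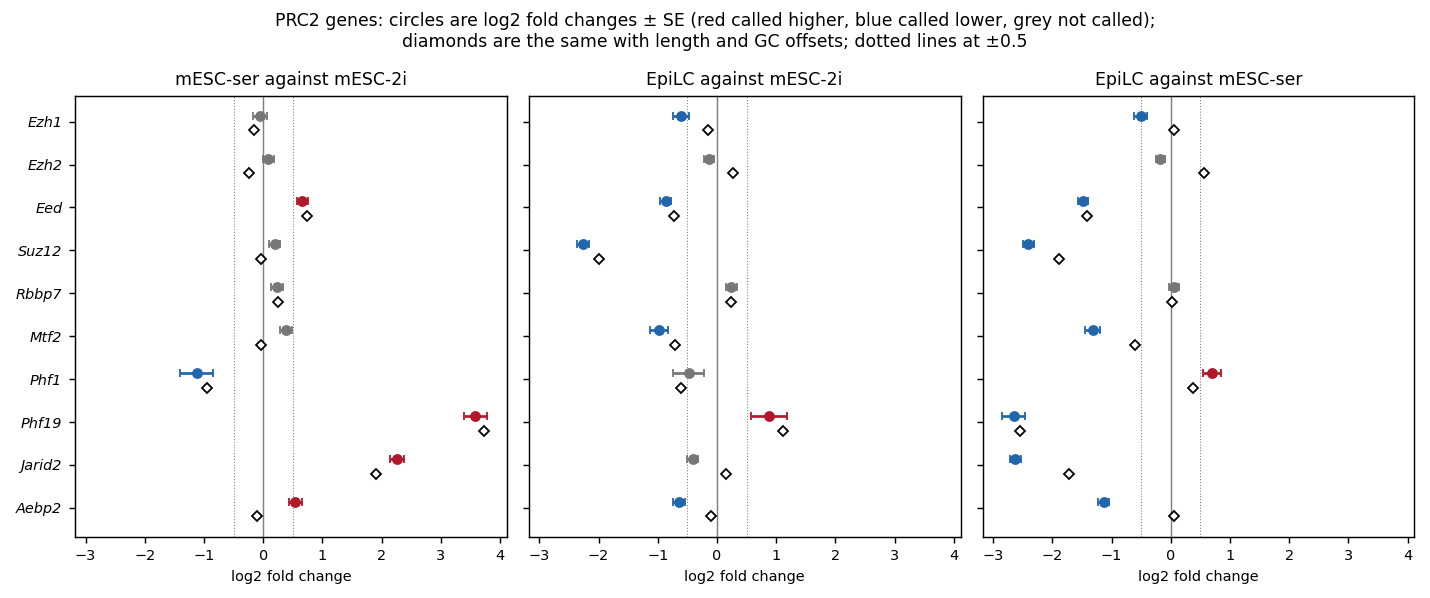
Log2 fold changes of the 10 PRC2 genes (rows) in 3 comparisons (panels, one shared horizontal axis), as circles with SE bars, coloured red where called higher, blue where called lower and grey where not called, with diamonds for the fit with length and GC offsets. Suz12 lies at -2.26 and -2.41 in the EpiLC panels and keeps its side with the offsets, whereas the diamonds of Ezh1 and Aebp2 lie near 0.

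Among the catalytic subunits, Ezh2 was called in no comparison with TMM scaling and no offsets, and Ezh1 was called lower in EpiLC. Ezh2 (ENSMUSG00000029687, chr6:47530139-47595341, - strand), the main methyltransferase of dividing cells, was at 136, 138 and 127 CPM in 2i, 151, 145 and 145 in serum and 118, 125 and 125 in EpiLC. The libraries of the 3 states did not overlap, with serum highest and EpiLC lowest, but the steps between them were small. The log2 fold change was 0.08 (SE 0.09, adjusted p = 0.448) in serum against 2i, -0.14 (SE 0.09, adjusted p = 0.156) in EpiLC against 2i and -0.18 (SE 0.08, adjusted p = 0.0422) in EpiLC against serum, and none was called. The direction of Ezh2 turned with the length and GC offsets in all 3 comparisons, to -0.24, 0.26 and 0.57, and the last of these was called higher in EpiLC (edgeR adjusted p = 9.26e-07). Under scaling by total counts it was called lower there instead (-0.52, adjusted p = 7.70e-06).

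Ezh1 (ENSMUSG00000006920, chr11:101191115-101226463, - strand), whose product is the weaker enzyme and prevails in cells that have stopped dividing, was at 30.2, 29.4 and 36.8 CPM in 2i, 30.8, 32.0 and 33.8 in serum and 18.5, 21.3 and 24.1 in EpiLC. All EpiLC libraries lay below all others, and 2i and serum overlapped. Ezh1 fell by 0.61 on the log2 scale against 2i (SE 0.14, edgeR adjusted p = 0.00189) and by 0.51 against serum (SE 0.11, adjusted p = 3.49e-04). These calls rest near the fold threshold. Without mESC-2i replicate 3 the first was -0.50 and not called, without EpiLC replicate 1, EpiLC replicate 2 or mESC-ser replicate 3 the second was -0.41, -0.50 and -0.47 and not called, and with the offsets they were -0.15 and 0.05. The second was also short of the threshold, at -0.48, with RLE size factors and with DESeq2. Ezh2 made up 82.2 ± 2.5% of the summed RPKM of both enzymes in 2i, 83.6 ± 0.94% in serum and 86.5 ± 1.25% in EpiLC (SD, n = 3).

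Of the core subunits, Suz12 and Eed were lower in EpiLC than in the other states and Rbbp7 was not called. Suz12 (ENSMUSG00000017548, chr11:79993106-80034123, + strand), the scaffold on which accessory proteins bind, was at 238, 235 and 248 CPM in 2i, 285, 275 and 299 in serum and 50.2, 46.1 and 56.4 in EpiLC. The lowest library of the embryonic stem cells lay far above the highest EpiLC library. Suz12 fell 4.78-fold in EpiLC against 2i (log2 fold change -2.26, SE 0.10, edgeR adjusted p = 1.82e-08) and 5.30-fold against serum (-2.41, SE 0.09, adjusted p = 4.20e-13). With the length and GC offsets the falls were -2.0 and -1.9. Between serum and 2i the libraries did not overlap, but the difference of 0.20 (SE 0.09, adjusted p = 0.0888) was not called and turned to -0.04 with the offsets.

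Eed (ENSMUSG00000030619, chr7:89954654-89980983, - strand), the subunit that binds H3K27me3 and stimulates the enzyme, differed in all comparisons. It was at 167, 165 and 152 CPM in 2i, 277, 276 and 245 in serum and 97.2, 84.7 and 87.4 in EpiLC. No library of one state overlapped with another state, serum being highest and EpiLC lowest. Eed rose 1.58-fold in serum against 2i (log2 fold change 0.66, SE 0.10, edgeR adjusted p = 2.12e-04), fell 1.82-fold in EpiLC against 2i (-0.86, SE 0.09, adjusted p = 8.71e-06) and 2.79-fold against serum (-1.48, SE 0.09, adjusted p = 7.84e-11). Eed kept its calls with the offsets, which gave 0.74, -0.72 and -1.41.

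Rbbp7 (ENSMUSG00000031353, chrX:162760402-162779092, + strand), a histone-binding protein that PRC2 shares with other chromatin complexes, was at 238, 229 and 219 CPM in 2i, 292, 282 and 266 in serum and 296, 262 and 263 in EpiLC. The 2i libraries were lowest and those of serum and EpiLC overlapped. It was called in no comparison, with log2 fold changes of 0.24 (SE 0.10, edgeR adjusted p = 0.053) in serum against 2i, 0.24 (SE 0.09, adjusted p = 0.032) in EpiLC against 2i and 0.05 (SE 0.08, adjusted p = 0.542) in EpiLC against serum, of which the second turned to -0.10 and the third to -0.29 under scaling by total counts. Of the 2195 50-base words in its longest transcript, 9.38% also occur in genes elsewhere, mostly Gm6382, and 125 are shared with genes that overlap it. Its counts are uncertain to that extent.

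The proportion of core transcripts to Ezh2 was set beside these levels after they had been seen. Per length, Suz12 ran at 2.44 ± 0.18 times the RPKM of Ezh2 in 2i (SD, n = 3) and 2.63 ± 0.14 times in serum, but at 0.561 ± 0.059 times in EpiLC, with 0.612 as the highest EpiLC library and 2.31 as the lowest of the other libraries. Eed ran at 2.11 ± 0.030, 3.16 ± 0.19 and 1.28 ± 0.14 times Ezh2, and Rbbp7 at 3.93 ± 0.11, 4.37 ± 0.14 and 5.14 ± 0.53 times. Such a ratio depends on the gene lengths used, being 1.15, 1.24 and 0.265 for Suz12 with the longest transcript of each gene, and shows unequal change, not which gene changed. The log2 fold change of Suz12 minus that of Ezh2 was between -2.27 and -2.03 in EpiLC against 2i over 17 fits. In EpiLC against serum it was between -2.46 and -2.15 over 17 fits. Scaling cancels in such a difference, so the choice of scaling could not move it. The fits that could move it were mainly those with the length and GC offsets or without a library. The log2 fold change of Rbbp7 minus that of Ezh2 changed sign among the same fits in both comparisons.

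The PRC2.1 subunits did not move together. Mtf2 (ENSMUSG00000029267, chr5:108065674-108109004, + strand), which binds unmethylated CpG-rich DNA and is the leading Polycomb-like protein of embryonic stem cells, was at 270, 243 and 295 CPM in 2i, 375, 373 and 352 in serum and 141, 106 and 169 in EpiLC. The 3 states did not overlap, and EpiLC was lowest. Mtf2 fell 1.98-fold in EpiLC against 2i (log2 fold change -0.98, SE 0.15, edgeR adjusted p = 1.44e-04) and 2.5-fold against serum (-1.32, SE 0.12, adjusted p = 2.50e-08). With the offsets these were -0.71 and -0.61. In serum against 2i it stood at 0.39 (SE 0.11, adjusted p = 0.00859), short of the fold threshold, and at -0.04 with the offsets.

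Phf19 (ENSMUSG00000026873, chr2:34893757-34914026, - strand), a Polycomb-like protein that reads methylated lysine 36 of histone H3, was the scarcest of the members in 2i and EpiLC and had the widest range over the states. Its raw counts were 8, 13 and 17 in 2i, 182, 176 and 273 in serum and 19, 22 and 12 in EpiLC, which are 0.982, 1.08 and 1.33 CPM, 12.7, 14.9 and 15.7 CPM, and 2.55, 2.39 and 1.51 CPM. All serum libraries lay well above the rest. Phf19 rose 12.0-fold in serum against 2i (log2 fold change 3.59, SE 0.20, edgeR adjusted p = 1.95e-07) and was 6.31-fold lower in EpiLC than in serum (-2.66, SE 0.19, adjusted p = 1.28e-09). The offsets left these at 3.73 and -2.55. The rise in EpiLC against 2i (0.88, SE 0.30, adjusted p = 0.0206) rested on few counts. It was not called without EpiLC replicate 1 (0.77), EpiLC replicate 2 (0.80) or mESC-2i replicate 1 (0.84), under scaling by total counts (0.55) or with DESeq2 (0.97).

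Phf1 (ENSMUSG00000024193, chr17:26933052-26937908, + strand), the third Polycomb-like gene, was at 14.1, 15.5 and 29.9 CPM in 2i, 7.21, 10.5 and 11 in serum and 13.3, 16.0 and 14.5 in EpiLC. Replicate 3 of 2i stood apart from the rest. The log2 fold change was -1.12 in serum against 2i (SE 0.28, edgeR adjusted p = 0.00468), and -0.69 without that replicate, still called. It was 0.69 in EpiLC against serum (SE 0.16, adjusted p = 5.96e-04) and 0.38, not called, with the offsets. In EpiLC against 2i it was -0.48 (SE 0.26, adjusted p = 0.112), called as a fall without mESC-2i replicate 1 (-0.62) or replicate 2 (-0.60) and at -0.04 without replicate 3. That fall was also called with the offsets (-0.62, adjusted p = 0.0331) and under scaling by total counts (-0.82, adjusted p = 0.0137). Total-count scaling also left 0.35, not called, in EpiLC against serum.

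Phf1 is uncertain for another reason. Cuta, on the opposite strand, covers 39.3% of its exonic length, and the TruSeq RNA kit named in the labels does not keep strand, so reads of the shared stretch cannot be told apart. Cuta stood at 48.0, 23.8 and 79.2 CPM in 2i, serum and EpiLC, with log2 fold changes of -1.07, 0.71 and 1.82. Its part in the values of Phf1 was not tested. Phf1 shares 937 of the 3093 50-base words of its longest transcript with overlapping genes. The same limit is smaller for Eed (212 of 2018 words), Mtf2 (347 of 4011) and Suz12 (131 of 4324).

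Both PRC2.2 subunits were highest in serum. Jarid2 (ENSMUSG00000038518, chr13:44729474-44921643, + strand), which lost the demethylase activity of its protein family and brings PRC2 to its targets, was at 163, 157 and 185 CPM in 2i, 787, 791 and 947 in serum and 126, 128 and 132 in EpiLC. Every serum library lay far above the highest of the other libraries. Jarid2 rose 4.80-fold in serum against 2i (log2 fold change 2.26, SE 0.12, edgeR adjusted p = 1.76e-07) and was 6.17-fold lower in EpiLC than in serum (-2.63, SE 0.09, adjusted p = 2.06e-13). With the length and GC offsets the values were 1.91 and -1.71. Between EpiLC and 2i the libraries did not overlap either, but the difference of -0.41 (SE 0.10, adjusted p = 0.00231) was short of the fold threshold. It was 0.16 with the offsets and was called lower under scaling by total counts (-0.75, adjusted p = 3.36e-05).

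Aebp2 (ENSMUSG00000030232, chr6:140622663-140678472, + strand), a zinc-finger protein that steadies the complex on nucleosomes, followed the same order at smaller steps. It was at 78.6, 78.7 and 94.2 CPM in 2i, 121, 120 and 140 in serum and 54.4, 52.4 and 56.7 in EpiLC, with no overlap between states. The log2 fold changes were 0.54 (SE 0.11, edgeR adjusted p = 0.00169), -0.64 (SE 0.10, adjusted p = 1.64e-04) and -1.14 (SE 0.09, adjusted p = 2.66e-09) in serum against 2i, EpiLC against 2i and EpiLC against serum. Aebp2 has the longest exonic length of the members (9851 bp), and all 3 calls were lost with the offsets, which gave -0.10, -0.10 and 0.05. The call in serum against 2i was also lost without mESC-ser replicate 3 (0.48), without mESC-2i replicate 2 (0.48) and under scaling by total counts (0.496).

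Among the accessory members, without the partner genes described below, the balance of transcripts tilted from PRC2.1 to PRC2.2 in serum. The tilt came through the share of Jarid2 and not that of Aebp2. Of the RPKM summed over Mtf2, Phf1, Phf19, Jarid2 and Aebp2, the 3 PRC2.1 genes held 67.3 ± 0.86% in 2i, 41.4 ± 3.06% in serum and 60.3 ± 3.85% in EpiLC (SD, n = 3), with 43.3% as the highest serum library and 56.2% as the lowest of the others. Jarid2 alone held 22 ± 0.58%, 51.0 ± 2.79% and 28.0 ± 2.94%, and Mtf2 59.9 ± 2.03%, 38.1 ± 3.22% and 50.5 ± 5.76%. Aebp2, the other PRC2.2 gene, had its lowest share in serum, at 10.8 ± 0.37%, 7.60 ± 0.27% and 11.7 ± 0.92%. Phf19 stayed at or below 1.80% in every library in spite of its wide range. Shares of transcripts are not shares of protein or of complex, and their level, though not the place of serum as the lowest of the states, moved with the gene lengths used. The shares also depend on the genes counted. Epop, a PRC2.1 partner that was left out, was at 108 RPKM in 2i, 195 in serum and 89.0 in EpiLC. Those means lay above that of every counted gene. Lcor, also left out, was at 0.244, 2.22 and 0.106 RPKM. The 41.4% in serum is therefore no share of all PRC2.1 transcripts.

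**Figure D3:**
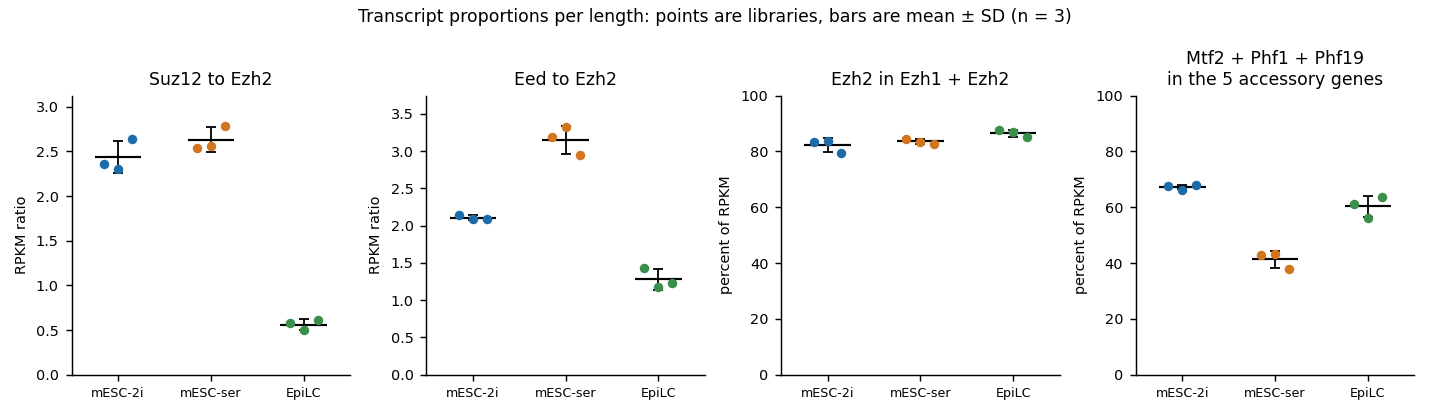
Transcript proportions from RPKM in the 3 libraries of each state, with points for libraries and bars for mean ± SD (n = 3): the ratios of Suz12 and of Eed to Ezh2, the share of Ezh2 in Ezh1 and Ezh2, and the share of Mtf2, Phf1 and Phf19 in the 5 accessory genes. The Suz12 ratio is 0.561 on average in EpiLC against 2.44 and 2.63 in the other states. The share of Mtf2, Phf1 and Phf19, which leaves out Epop and Lcor, is lowest in mESC-ser, at 41.4%.

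Other proteins join PRC2 or inhibit it, and 7 of their genes were followed. In serum against 2i, 2 were called higher (Lcor, Epop) and 1 lower (Ezhip). In EpiLC against 2i, 2 were called higher (Elob, Eloc) and 3 lower (Lcor, Lcorl, Ezhip), and in EpiLC against serum 3 higher (Elob, Eloc, Rbbp4) and 3 lower (Lcor, Lcorl, Epop). Of all tested genes, 25.9%, 32.0% and 35.5% were called higher and 30.3%, 37.8% and 37.8% lower in the 3 comparisons, so nothing is read from these counts. Epop, which ties PRC2.1 to elongin BC, was at 251, 276 and 220 CPM in 2i, 434, 415 and 503 in serum and 201, 210 and 206 in EpiLC, so that serum was above both other states in every library. Its log2 fold change was 0.80 in serum against 2i (SE 0.12, edgeR adjusted p = 1.76e-04), -0.29 in EpiLC against 2i (SE 0.10, adjusted p = 0.0206) and -1.04 in EpiLC against serum (SE 0.09, adjusted p = 6.33e-09). With the offsets the EpiLC values were -0.87 (adjusted p = 1.08e-06) and -1.86, both called lower, and the first was also called under scaling by total counts (-0.63). Eloc, which encodes elongin C, was highest in EpiLC and was at 59.8, 64.4 and 53.6 CPM in 2i, 80.9, 88.8 and 64.4 in serum and 268, 243 and 236 in EpiLC. It rose by 2.05 in EpiLC against 2i (SE 0.10, adjusted p = 3.61e-08) and by 1.76 against serum (SE 0.11, adjusted p = 1.21e-10) on the log2 scale, and stood at 0.34 in serum against 2i (adjusted p = 0.045), short of the fold threshold. Elob, for elongin B, gave 2.08 (SE 0.12, adjusted p = 1.10e-07) and 2.62 (SE 0.09, adjusted p = 1.40e-13), but 35.2% of its 50-base words occur in other genes, and the offsets gave 1.38 and 1.67. In serum against 2i it stood at -0.49 and passed the fold threshold with upper-quartile (-0.53) or total-count scaling (-0.54) and without mESC-ser replicate 1 (-0.50) or mESC-2i replicate 3 (-0.61).

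Lcor, whose locus also encodes the PRC2.1 partner PALI1, resembled Phf19 in its range. Its raw counts were 8, 23 and 37 in 2i, 240, 218 and 302 in serum and 5, 3 and 12 in EpiLC. It rose by 3.05 on the log2 scale in serum against 2i (SE 0.24, edgeR adjusted p = 2.37e-06) and was at -4.33 in EpiLC against serum (SE 0.26, adjusted p = 8.57e-11). The libraries of EpiLC and 2i overlapped, and the fall of 1.31 (SE 0.52, adjusted p = 0.0374) between them was not called with the offsets (-0.85), with DESeq2 (-1.19), nor without EpiLC replicate 1 (-1.18), EpiLC replicate 2 (-0.87) or mESC-2i replicate 3 (-0.92). Reads of PALI1 cannot be told from other Lcor transcripts in counts per gene. Lcorl, its paralog, fell by 1.52 and 1.53 in EpiLC against 2i and serum (adjusted p = 7.07e-05 and 3.02e-06), and was at 0.05 (adjusted p = 0.807) in serum against 2i. With the offsets it was -0.80 and 0.21 in EpiLC, the latter not called, and was called lower in serum against 2i (-0.98, adjusted p = 4.71e-04).

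Ezhip, which encodes an inhibitor of the enzyme and is listed in the annotation as AU022751, was low in every state, at 8.09 ± 0.15 CPM in 2i, 4.95 ± 0.39 in serum and 5.75 ± 1.69 in EpiLC (SD, n = 3). It fell by 0.76 in serum against 2i (SE 0.15, edgeR adjusted p = 0.00113) and by 0.52 in EpiLC against 2i (SE 0.20, adjusted p = 0.0362) on the log2 scale, and stood at 0.28, not called, in EpiLC against serum, which turned to -0.06 under scaling by total counts. With the offsets the 3 values were -0.51, -0.89 and -0.34, the last not called. The second call was lost with RLE size factors and with DESeq2 (both -0.45), and without EpiLC replicate 2 (-0.44), EpiLC replicate 3 (-0.35), mESC-2i replicate 1 (-0.49) or mESC-2i replicate 2 (-0.47). Rbbp4, the paralog of Rbbp7, was called higher in EpiLC against serum (0.50, SE 0.11, adjusted p = 3.78e-04) though not without EpiLC replicate 1 (0.49) or mESC-ser replicate 3 (0.37), and stood at -0.17 in serum against 2i and 0.29 in EpiLC against 2i, not called. The fits differed widely for Rbbp4. With the offsets it was called in all comparisons, at -0.63 in serum against 2i (adjusted p = 0.0133), 0.79 in EpiLC against 2i (adjusted p = 4.85e-04) and 1.47 in EpiLC against serum, whereas scaling by total counts gave -0.05 and 0.17 for the EpiLC comparisons, not called. The call in EpiLC against serum was also lost with upper-quartile scaling (0.48), with no filter (0.42), with at least 10 counts in every library (0.43) and with all 9 libraries in one fit (0.44).

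The H3K27 demethylases were read beside the enzymes that place the mark. Kdm6a, the X-linked demethylase UTX, was at 43.1, 34.2 and 43.3 CPM in 2i, 121, 124 and 126 in serum and 13.0, 10.6 and 16.3 in EpiLC, with no overlap between states. It rose 2.96-fold in serum against 2i (log2 fold change 1.56, SE 0.12, edgeR adjusted p = 1.79e-06), fell 3.06-fold in EpiLC against 2i (-1.61, SE 0.17, adjusted p = 6.88e-06) and 8.79-fold against serum (-3.14, SE 0.12, adjusted p = 4.18e-13). The offsets kept all 3 calls, at 1.06, -1.12 and -2.13. Uty, its Y-linked homologue with little activity, was called in the same directions (1.01, -1.25 and -2.22). With the offsets these were 0.20, not called, -0.79 and -0.95. Kdm6b, the demethylase JMJD3, was at 82.1 ± 16.0 CPM in 2i, 96.5 ± 9.45 in serum and 103 ± 13.5 in EpiLC (SD, n = 3) and was called in no comparison. With the offsets it was called higher in EpiLC against serum (0.50, adjusted p = 4.96e-05), where the value was 0.18 without them and -0.16 under scaling by total counts.

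**Figure D4:**
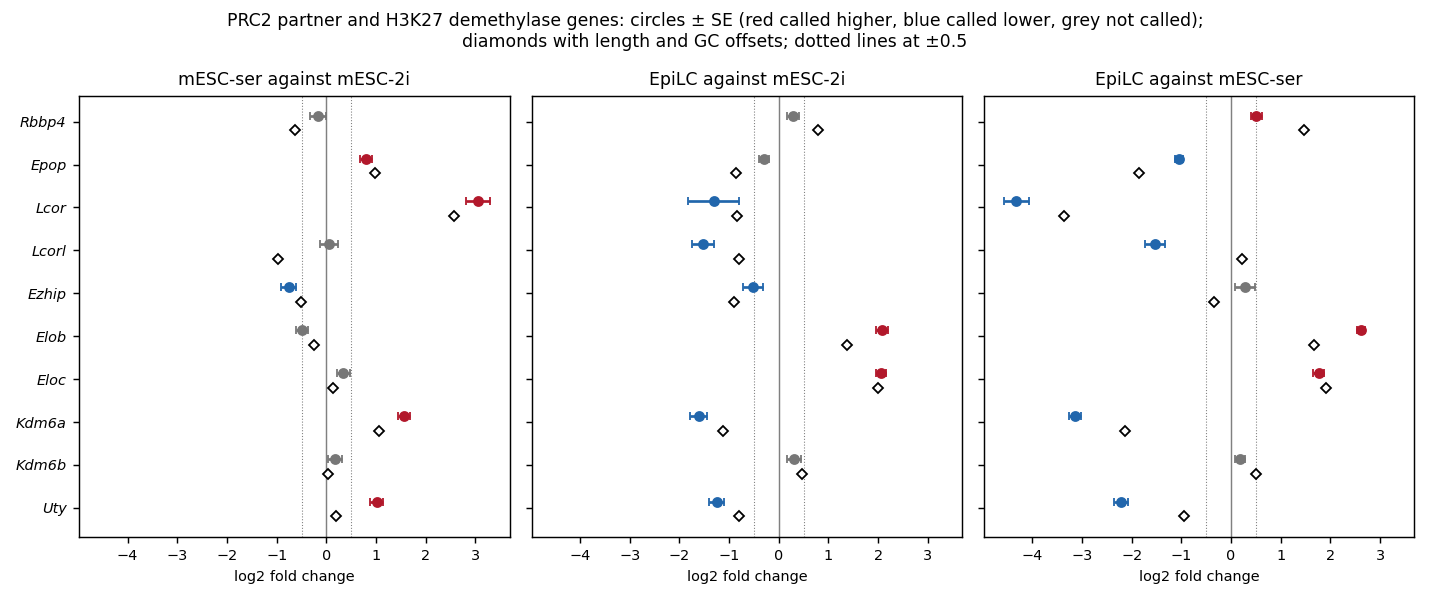
Log2 fold changes of 7 PRC2 partner genes and 3 H3K27 demethylase genes (rows) in 3 comparisons (panels, one shared horizontal axis), as circles with SE bars, red where called higher, blue where called lower and grey where not called, with diamonds for the fit with length and GC offsets. By the circles, Lcor spans the widest range, from 3.05 to -4.33, and Elob and Eloc lie above 1.7 in both EpiLC panels.

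Developmental genes that PRC2 is known to silence in embryonic stem cells were read from a list of 28 regulators. Their summed level was 171 to 191 CPM in 2i, 76.6 to 85.7 in serum and 23.2 to 23.8 in EpiLC. T, described next, carried most of the difference between 2i and serum, and without it the sums were 93.1 to 102.7, 72.1 to 80.7 and 22.1 to 22.4 CPM. A mean of 1 CPM or more was reached by 17 of the 28 genes in 2i, 13 in serum and 6 in EpiLC, where Pax3, Neurog2 and Sim1 had no count. The filter on low counts left 20, 16 and 14 of them to test in serum against 2i, EpiLC against 2i and EpiLC against serum. Called higher and lower were 5 and 13, none and 14, and 2 and 11, beside 25.9% and 30.3%, 32.0% and 37.8%, and 35.5% and 37.8% of all tested genes. A gene close to 0 in one state could pass the filter only where the other state was high. The direction of the EpiLC counts is therefore largely set by the filter, and nothing is read from them. The same limit holds for part of the counts in serum against 2i. It also holds for the genes named next that are near 0 in one state, namely Hand1, Tbx5, Pax3, Gata3 and, in EpiLC, Pax6. T also had few counts in EpiLC (10, 10 and 13), and the same limit may touch it.

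Single targets went both ways between serum and 2i. Pax6, a regulator of eye and neural development, rose from 1.69 ± 0.35 CPM in 2i to 25.2 CPM in serum (log2 fold change 3.83, SE 0.18, edgeR adjusted p = 6.40e-08) and was at 0.464 CPM in EpiLC (-5.70 against serum, SE 0.23, adjusted p = 7.37e-13). T, the mesoderm factor Brachyury, was at 77.4, 80.8 and 98.3 CPM in 2i, 3.71, 4.50 and 4.94 in serum and 1.34, 1.09 and 1.63 in EpiLC, a fall of 6.0 on the log2 scale between 2i and EpiLC (SE 0.18, adjusted p = 1.70e-09). Hand1, of the heart and trophoblast, was called higher in serum with 68, 46 and 86 counts against 1, 0 and 1 in 2i, and Tbx5, of the heart and forelimb, lower with 0, 0 and 1 counts against 23, 31 and 48. Pax3, of the neural crest and muscle, had 62, 82 and 92 counts in 2i, 5, 0 and 2 in serum and none in EpiLC, and was at least 19.6-fold lower in EpiLC than in 2i. Gata3 was called lower in EpiLC against serum with 0, 0 and 2 counts against 77, 61 and 92. Msx1 was called higher there (1.52, SE 0.24, adjusted p = 1.98e-05).

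PRC2 genes are known targets of E2F in dividing cells, so 14 proliferation genes were read beside them. Called higher and lower were 5 and 1 of them in serum against 2i, 8 and 2 in EpiLC against 2i, and 2 and 2 in EpiLC against serum. The shares of all tested genes were 25.9% and 30.3%, 32.0% and 37.8%, and 35.5% and 37.8%. Ccne1 (2.23) and Mki67 (1.80) rose and E2f1 fell (-0.75, edgeR adjusted p = 0.0013) in serum against 2i. Ccne1 (2.16) and Cdk1 (1.5) rose and E2f1 (-0.76) and Mki67 (-0.55) fell in EpiLC against 2i, and Cdk1 (1.05) and Pcna (0.84) rose and Mki67 (-2.30) and Mcm4 (-0.54) fell in EpiLC against serum. Their part in the PRC2 levels was not tested.

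The genes most like Phf19, the member with the widest range, were Sdad1, Mcm10 and Pop1 (Pearson r = 0.996, 0.995 and 0.995 of log2 CPM over the 9 libraries, among 10103 genes with a mean of at least 10 CPM). All 3 were highest in serum and lowest in 2i, as Phf19 was, at 172 CPM against 83.6 for Sdad1, 176 against 108 for Mcm10 and 146 against 46.0 for Pop1. The points share 3 states, and 300 genes reached r = 0.95, so the likeness is a description.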

How the data were processed

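RNA was poly-A selected and sequenced as 50-base single-end reads. The authors trimmed reads with Trim Galore (version 0.6.6), aligned them with HISAT2 (2.2.1) to mm10 and counted them per gene with featureCounts (Subread 2.0.1), per the labels and the study's methods. The deposited values are raw counts per Ensembl gene, with no normalization. The annotation release, strand setting and treatment of multiply aligned reads are not given in the sources used here. Each column was matched by its name to 1 sample, and SL was read as serum plus LIF, the condition in the titles. The labels number biological replicates without saying what separates them, so p-values measure the spread between these libraries.

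Symbols, positions and exonic lengths came from GENCODE M21 (GRCm38, the assembly of mm10), and promoters from RefSeq (GRCm38.p6), which held a start for all 10 members. edgeR 4.0.16 was run on the 6 libraries of each pair of states (R 4.3.3, limma 3.58.1): filterByExpr, TMM scaling and the quasi-likelihood F-test with Benjamini-Hochberg adjustment over all tested genes. SE were taken from the F statistic. The limit on the fold follows the study's edgeR setting, and the use of adjusted p was a choice made here. CPM were scaled by TMM over all 9 libraries, and RPKM are CPM per kilobase of merged exons. Log2 CPM used a prior count of 2. Offsets for length and GC content were natural splines with 5 degrees of freedom in each library. Totals limit the precision for low genes, and floors cover counting error only, as reads carried no molecular identifiers.

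The members and gene lists were chosen with earlier results of these data known. Named are all members, partners and demethylases. Of the developmental targets and the proliferation genes, up to 2 called genes with the largest rise and fall per comparison are named, where the higher group averaged 20 counts or more. For the member with the widest range, the 3 genes of highest Pearson r are named. Between mESC-ser and mESC-2i, deviations from group means correlated at 0.127, 0.180 and 0.340 for same-numbered libraries. Replicate 1 of mESC-ser correlated at 0.144 with replicate 2 of mESC-2i, so the numbers did not clearly pair replicates 1 and 2. Replicate 3 of either state correlated at -0.16 to -0.28 with replicates 1 and 2 of the other. Alternatives tried were scaling by RLE, the upper quartile or total counts, other filters and thresholds, DESeq2 1.42.0, all 9 libraries in one fit, a replicate block, the offsets, and leaving out each library.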

Additional observations from a re-analysis of the deposited data

How the results depend on the processing

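The calls of members, partners and demethylases were kept in most fits, and the length and GC offsets changed them most. Over the 3 comparisons, the log2 fold changes of members, partners and demethylases kept their direction and call in 38 of 60 values with the offsets, 45 of 60 under total-count scaling, at least 53 of the 55 to 60 values in each other scaling, filter or tool, and 36 to 39 of 40 values without a single library. Total-count scaling moved the median of all genes from -0.11 to -0.45 in EpiLC against 2i and from -0.07 to -0.41 in EpiLC against serum. With a replicate block every one of the 60 values kept its call, and members called stayed at 5, 6 and 8. With the block and the offsets together 39 of 60 values were kept, and at a log2 fold change beyond 1 it was 47 of 60. Same-numbered libraries correlated most for serum with 2i, though replicates 1 and 2 were not clearly paired by number there. In both EpiLC comparisons each library correlated most with the same-numbered one, but at small values. These were 0.022, 0.109 and 0.109 for EpiLC with 2i and 0.018, 0.017 and 0.034 for EpiLC with serum. Nothing in the labels gives the meaning of a number.

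Directions turned as follows. With the offsets, and with the offsets and the replicate block, the log2 fold changes in serum against 2i were -0.24 and -0.24 for Ezh2, -0.040 and -0.042 for Suz12, -0.040 and -0.039 for Mtf2, -0.098 and -0.098 for Aebp2, and -0.98 and -0.98 for Lcorl. In EpiLC against 2i they were 0.26 and 0.27 for Ezh2 and 0.16 and 0.16 for Jarid2. In EpiLC against serum they were 0.053 and 0.050 for Ezh1, 0.57 and 0.56 for Ezh2, 0.052 and 0.055 for Aebp2, 0.21 and 0.21 for Lcorl, and -0.34 and -0.34 for Ezhip. Under total-count scaling Rbbp7 (-0.096), Rbbp4 (-0.049) and Kdm6b (-0.031) turned in EpiLC against 2i, and Rbbp7 (-0.29), Ezhip (-0.056) and Kdm6b (-0.16) in EpiLC against serum. Rbbp7 in EpiLC against serum was also -0.031 with no filter, -0.019 with at least 10 counts in every library and -0.016 with all 9 libraries in one fit. Leaving out single libraries, Ezh1 ran from -0.13 to 0.059 and Lcorl from -0.075 to 0.19 in serum against 2i.

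At a log2 fold change beyond 1, 4935 genes (31.4%) were called in serum against 2i, beside 8843, and the members called were 3 there, 1 in EpiLC against 2i, where 48.5% of genes were called, and 6 in EpiLC against serum (51.9%). The share of Ezh2 in both enzymes was 86.2% (2i), 87.3% (serum) and 89.7% (EpiLC) with the longest transcript, and 82.0% (serum) and 85.2% (EpiLC) from CPM. The share of Mtf2, Phf1 and Phf19 among the accessory members was 53.5% (2i), 28.9% (serum) and 45.6% (EpiLC) from CPM. The cause of these changes was not tested, apart from the lengths that set the shares. Phf19 and Lcor gave no value with at least 10 counts in every library, except Phf19 in EpiLC against serum. Few counts limit Phf19 and Lcor in 2i and EpiLC.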
